A study of Mus musculus with 3 samples.

Results

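Proliferating bins were squares of 27 µm that held at least 4 transcripts of *Mki67* and *Top2a* together, and they were described here in thymus sections from 2 *Trp53*-/- (KO) mice and 1 *Trp53*+/+ (WT) mouse. Across the 3 sections, 4476 of 56744 bins were members. They were chosen by the counts of these 2 genes, so the levels of *Mki67* and *Top2a* in members are a description of the choice. The comparison bins were those with 0 *Mki67* and *Top2a* transcripts in the same section, of which there were 28015, and each member was set beside an unused one whose total count lay within 10% of its own.

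The sections were captured on slides with barcoded spots 4.8 µm apart, and counts are of unique molecular identifiers (UMIs), which mark single captured transcripts. The mice were female C57BL/6, perfused with PBS, and each gave 1 section of thymus. The sections are named after the mice: KO1134 came from a mouse 17 weeks old, KO1308 from one 21 weeks old and WT1101 from one 17 weeks old. The knockout was present in the whole animal, in the thymic epithelium as well as in thymocytes, and WT and KO tissue was permeabilised for different times, which cannot be told apart from genotype. With 1 WT mouse, no test between genotypes could be made. Bins of a section are not replicates either, and intervals in brackets are exact 95% intervals that cover counting error only. A difference of 1 direction in all 3 sections has a smallest two-sided sign p of 0.25.

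*Mki67* encodes Ki-67, a protein that coats chromosomes in mitosis and is made in dividing cells but not in resting ones. *Top2a* encodes topoisomerase II alpha, which untangles replicated DNA, and its transcript is most abundant in G2 and mitosis. In the thymus, the main burst of division follows successful rearrangement of the T cell receptor beta chain, when double-negative (DN) thymocytes become double-positive (DP) blasts in the outer cortex, whereas small DP cells rest while they rearrange the alpha chain, and mature T cells of the medulla divide little.

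*Mki67* (ENSMUSG00000031004) lies on chromosome 7 of GRCm38 from 135689784 to 135716361, on the minus strand, and *Top2a* (ENSMUSG00000020914) on chromosome 11 from 98992943 to 99024189, also on the minus strand. Genes of G2 and mitosis carry a short element called CHR, and CCAAT boxes, near their start, whereas genes of DNA replication carry E2F sites. The 250 bases before the start of both genes, and of the mitotic cyclin gene *Ccnb2*, which was chosen after its values were seen, are printed to show these elements (RefSeq, GRCm38.p6, minus strand, 5′ to 3′). Capitals mark matches on either strand. The CHR element was searched as TTTGAA and, as its second form, with letters TTCGAA. The CCAAT box was searched by its own name as letters. The E2F site was searched as TTCCCGC and, as its second form, with letters TTGGCGC.
*Mki67* promoter, chr7:135716380-135716629: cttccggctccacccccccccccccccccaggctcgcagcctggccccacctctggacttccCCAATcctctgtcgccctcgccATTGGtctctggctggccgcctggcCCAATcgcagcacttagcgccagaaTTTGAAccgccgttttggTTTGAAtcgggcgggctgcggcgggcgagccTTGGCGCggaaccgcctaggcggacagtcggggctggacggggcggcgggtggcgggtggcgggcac
*Top2a* promoter, chr11:99024190-99024439: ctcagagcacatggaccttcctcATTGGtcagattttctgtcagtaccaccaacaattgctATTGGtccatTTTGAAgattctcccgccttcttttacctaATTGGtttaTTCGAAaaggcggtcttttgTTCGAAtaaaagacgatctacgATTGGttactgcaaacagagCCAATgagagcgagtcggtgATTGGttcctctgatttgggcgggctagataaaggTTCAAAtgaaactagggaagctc
*Ccnb2* promoter, chr9:70421555-70421804: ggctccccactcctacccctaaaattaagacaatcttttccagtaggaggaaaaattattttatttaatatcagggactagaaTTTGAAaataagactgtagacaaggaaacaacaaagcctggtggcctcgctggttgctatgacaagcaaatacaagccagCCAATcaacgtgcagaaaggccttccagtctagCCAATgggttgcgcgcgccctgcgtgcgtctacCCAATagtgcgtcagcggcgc

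The *Mki67* window held 2 CHR, 3 CCAAT and 1 E2F matches, that of *Top2a* 4 CHR and 6 CCAAT matches, and that of *Ccnb2* 1 CHR and 3 CCAAT matches. Of 27025 promoter windows of this length, 17.4% held a CHR match, 34.5% a CCAAT match and 5.71% an E2F match. Of the mitosis genes described below with *Mki67* and *Top2a*, 69 of 80 had a window, and 31.9% of these held CHR, 71.0% CCAAT and 11.6% E2F. For replication genes, 49 of 59 had a window, with 18.4%, 55.1% and 28.6%. A match of letters is a description of the window and says nothing of binding.

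Members made up 7.81% (7.34 to 8.31) of the bins of KO1134, 3.21% (2.96 to 3.49) of those of KO1308 and 10.9% (10.5 to 11.3) of those of WT1101, or 941 of 12044, 560 of 17425 and 2975 of 27275 bins. The share was lowest in the section with the fewest UMIs per bin. The median bin held 2641 UMIs in KO1134, 834 in KO1308 and 1350 in WT1101, and the median member 3441, 1890 and 2497. A bin with few UMIs could seldom reach 4 of these genes, and members held at least 650, 404 and 358 UMIs in the same order.

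**Figure D1:**
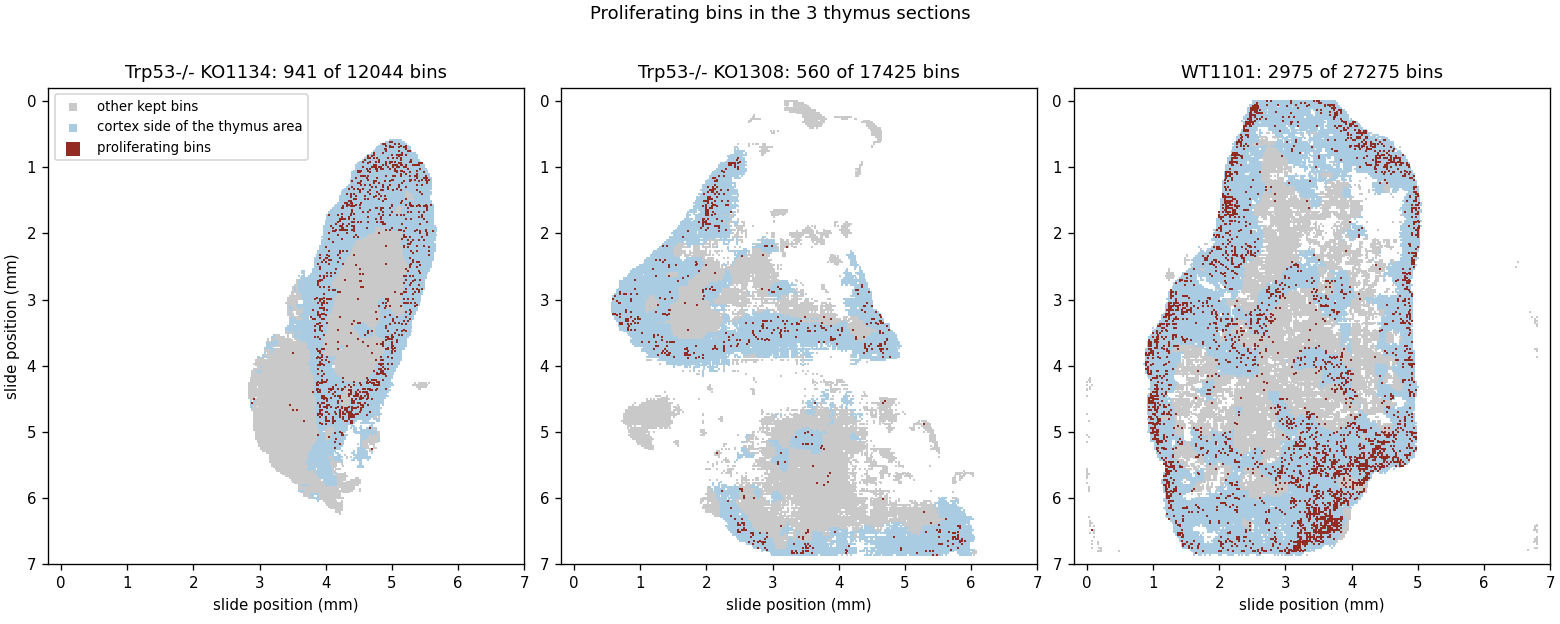
Position of proliferating bins (dark red) on the slide, in millimetres, over bins on the cortex side of the thymus area (blue) and all other kept bins (grey), in each section. Members lay mostly on blue, with 91.9% of them there in KO1134, 90.7% in KO1308 and 92.1% in WT1101. Of all kept bins, 53.5%, 49.8% and 65.4% lay there.

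Set at equal depth, over bins of all tissues, the KO sections had smaller shares of members than WT. Among bins of 2000 to 3000 UMIs, 6.32% (5.54 to 7.16) were members in KO1134, 11.6% (10.1 to 13.3) in KO1308 and 24.5% (23.4 to 25.7) in WT1101. Among bins of 3000 to 4000 UMIs the shares were 12.7%, 16.7% and 49.5%. When every bin of at least 1000 UMIs was thinned to 1000 and at least 2 UMIs of the genes were asked for, 8.51% (7.99 to 9.06), 16.3% (15.4 to 17.2) and 23.9% (23.2 to 24.5) passed, after 1390, 10281 and 9530 shallower bins were left out. KO1308 lay below KO1134 in the raw share and above it at equal depth, and both lay below WT in each of these measures. The tissues in the bands differed between sections. In KO1134, 2001 bins were lymph-node-like, with B cell genes above thymus genes, a median of 3179 UMIs and 0.400% members. WT1101 had 0 such bins, and the part of tissue in these shares was not tested. On the cortex side, at any depth, members were 13.4% of bins in KO1134, 5.85% in KO1308 and 15.4% in WT1101. Over all bins, a measure without any threshold, the 2 genes together had 435 (428 to 443) CPM in KO1134, CPM being UMIs of a gene scaled by the total UMIs of the same bins, 632 (620 to 643) in KO1308 and 903 (894 to 912) in WT1101, and within the thymus area alone 558, 765 and 937 CPM. On its cortex side they had 646 (633 to 658), 901 (883 to 920) and 1007 (996 to 1018) CPM.

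**Figure D2:**
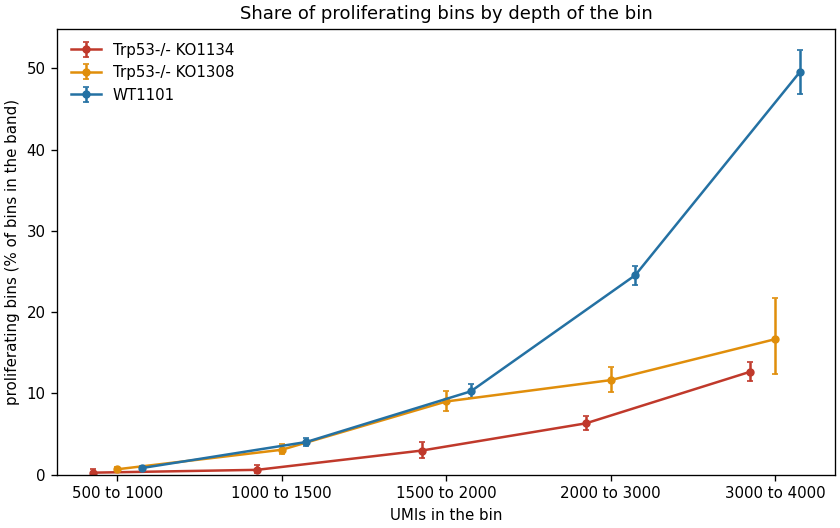
Share of bins that are members (percent) in bands of the bin's own UMIs, per section, with exact 95% intervals for counting error. From 2000 UMIs upwards both KO sections lie below WT, with 6.32% and 11.6% against 24.5% of bins at 2000 to 3000 UMIs.

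Both genes of the rule were seen together in most members, in 81.2% in KO1134, 85.4% in KO1308 and 88.9% in WT1101. Their balance differed between the sections. *Mki67* stood at 903 CPM in members of KO1134, 1132 in KO1308 and 1002 in WT1101, and *Top2a* at 537, 1334 and 997 CPM. Over all bins, *Mki67* UMIs per *Top2a* UMI were 1.83 (1.77 to 1.90) in KO1134, 0.907 (0.874 to 0.941) in KO1308 and 1.05 (1.03 to 1.08) in WT1101. Members with *Mki67* but no *Top2a* numbered 160 in KO1134 against 17 with *Top2a* alone, whereas in WT1101 these numbers were 162 and 169. The 2 KO sections lay on either side of WT, so genotype did not order this ratio. Members held 34.6%, 23.1% and 41.9% of all UMIs of the 2 genes, and the rest lay in bins with 1 to 3 of them.

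Bins just inside the threshold, with 4 UMIs, numbered 479 in KO1134, 308 in KO1308 and 1324 in WT1101. Bins just outside, with 3 UMIs, numbered 938, 665 and 2234. The mitosis genes other than *Mki67* and *Top2a* stood at 5539 CPM inside and 5018 outside in KO1134, at 7606 and 7007 in KO1308, and at 8626 and 8012 in WT1101. The threshold thus cut through a gradual scale, and no gap separated members from the bins below it.

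Comparison bins were matched on depth, not on tissue. In KO1134, 50.7% of them lay in lymph-node-like tissue beside the thymus, where B cell genes exceed thymus genes, and in KO1308 38.8% lay in tissue outside the thymus area. In WT1101, 67.8% of them lay in cortex. The share of mitochondrial UMIs was 0.995% in members and 2.29% in comparison bins of KO1134, 0.988% and 5.98% in KO1308, and 0.840% and 0.770% in WT1101, and its part in the ratios was not tested. The ratios of lists and genes, the neighbours and the distance to the edge were therefore also computed with members and comparison bins on the cortex side of the thymus area alone, where a window of 7 × 7 bins reached 50% of the share that 6 thymus genes took of the whole section, was not lymph-node-like, and had at least the section's own balance of 6 cortical to 7 medullary epithelial genes. This gave 658 pairs in KO1134, 489 in KO1308 and 1605 in WT1101, or 76.1% of 865, 96.3% of 508 and 58.6% of 2741 cortex members. The median UMIs of members and comparison bins in these pairs were 3212 and 2913, 1887 and 1833, and 2092 and 1898. This cortex comparison was added after the data were seen. Genes that set its area are also in lists compared within it. Of the thymus genes, *Themis*, *Arpp21* and *Cd8b1* are in the DP list, *Ptcra* in those of DN3 cells and blasts, and *Prss16* and *Psmb11* in the cortical epithelial list. The 6 cortical and 7 medullary genes are the lists of these cells. *Cd79a*, *Cd79b* and *Ms4a1*, which set lymph-node-like tissue, are in the B cell list. In WT1101, 1010 of the 2975 members, with a median of 3304 UMIs, had no bin of 0 UMIs left at their depth and entered no ratio to comparison bins. They were kept where members of different sections were set side by side.

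Ratios to comparison bins were read against all genes. Among genes with at least 50 UMIs over both kinds of bin, 22.7% of 11821 were at least 1.5-fold higher in members of KO1134 and 14.1% at least 1.5-fold lower. In KO1308 these shares were 27.8% and 12.5% of 8085 genes, and in WT1101 3.51% and 7.31% of 11943 genes. In all 3 sections together, 2.05% of 7950 genes (163) were higher and 2.26% (180) lower. On the cortex side, 2.52% and 3.87% of 10298 genes in KO1134, 5.43% and 5.39% of 7362 in KO1308 and 2.63% and 3.17% of 11182 in WT1101 were past 1.5-fold, higher and lower, and 0.0694% (5) and 0.125% (9) of 7204 genes in all 3. The median ratio over all genes was 1.09, 1.20 and 0.985 in whole sections and 1.01, 1.03 and 0.983 on the cortex side. The members were chosen with this contrast, so the counts of genes that follow are descriptions.

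Genes of mitosis were higher in members of each section. The 78 genes of mitotic cyclins and kinases, of the spindle and kinetochore and of the anaphase-promoting complex stood at 5665 CPM in members and 1914 in comparison bins of KO1134, at 7689 and 2878 in KO1308, and at 8967 and 5461 in WT1101. The ratios were 2.96 (2.88 to 3.05), 2.67 (2.56 to 2.78) and 1.64 (1.61 to 1.67). Of the genes with enough UMIs, 72 of 75 were past 1.5-fold in KO1134, 63 of 66 in KO1308 and 61 of 78 in WT1101, and 0 were past it in the lower direction. On the cortex side the ratios were 1.23 (1.19 to 1.26), 1.33 (1.28 to 1.38) and 1.46 (1.43 to 1.48), with 8 of 74, 15 of 65 and 34 of 78 genes past 1.5-fold, and in KO1134 1 gene was past it in the lower direction. Members thus exceeded cortex bins of equal depth without *Mki67* and *Top2a* in each section, and the order of the sections was the reverse of that in whole sections, WT being highest.

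Among mitotic kinases and cyclins, *Bub1*, which encodes a kinase of the spindle checkpoint, stood at 39.2 CPM in members and 9.20 in comparison bins of KO1134, 74.2 and 13.7 in KO1308, and 41.1 and 26.6 in WT1101. Its ratios of 4.27 (2.85 to 6.58), 5.40 (3.09 to 10.1) and 1.55 (1.21 to 1.99) became 1.67, 1.76 and 1.39 on the cortex side. *Nek2*, a kinase that separates centrosomes, was among the 10 genes whose lowest ratio over the sections was largest, at 2.17, 2.57 and 2.03, and its cortex-side ratios were 0.953, 1.37 and 1.93. The aurora kinase gene *Aurka* had ratios of 3.50, 4.14 and 1.58, and *Ccnf*, which encodes cyclin F, 3.92, 3.47 and 1.70. *Cdc25a*, a phosphatase that activates cyclin-dependent kinases already at entry into S phase, was nearer to 1 in WT1101, with 1.89, 2.51 and 1.25.

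Proteins of the spindle were encoded by several of the genes with large ratios. *Troap*, a spindle-associated protein, stood at 20.5 CPM in members and 3.99 in comparison bins of KO1134, at 44.9 and 14.7 in KO1308, and at 23.5 and 10.99 in WT1101, with ratios of 5.15 (2.82 to 10.2), 3.06 (1.71 to 5.77) and 2.14 (1.48 to 3.14). *Kif22*, a motor that moves chromosome arms, stood at 83.4 and 21.2 CPM, 128 and 28.4 CPM, and 125 and 70.3 CPM. These 2 genes were also past 1.5-fold on the cortex side of all 3 sections, at 1.59, 1.61 and 1.97 for *Troap* and 1.51, 1.99 and 1.71 for *Kif22*, although the intervals of *Troap* in the KO sections, 0.960 to 2.68 and 0.957 to 2.75, included 1. The other 3 genes of which this held were *Kif15*, a spindle motor, *Cip2a*, whose product inhibits protein phosphatase 2A, and *Ank3*, an ankyrin that links membrane proteins to the cytoskeleton, with lowest ratios of 1.51, 1.53 and 1.51. *Cenpf*, of the outer kinetochore, had 6.08, 3.12 and 1.88 in whole sections, and *Tpx2*, which builds microtubules around chromosomes, 4.13, 5.74 and 1.53. *Cenpp*, of the inner kinetochore, had the smallest median ratio of the spindle list, with 0.849, 1.08 and 1.77, and its intervals in the KO sections included 1. Its cortex-side ratios were 0.527 (0.316 to 0.864), 0.780 (0.423 to 1.42) and 1.59 (1.11 to 2.29), so it was past 1.5-fold lower there in KO1134.

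Genes of mitotic exit and of chromosome structure were likewise higher. *Ube2c*, the conjugating enzyme of the anaphase-promoting complex, stood at 198 CPM in members and 49.7 in comparison bins of KO1134, 312 and 87.1 in KO1308, and 422 and 227 in WT1101. Of the 20 genes of condensation and cohesion, 17 were past 1.5-fold in KO1134, 19 in KO1308 and 9 in WT1101, with 1, 1 and 0 in the lower direction. In cortex pairs the list stood at 1.21 (1.17 to 1.24), 1.28 (1.23 to 1.34) and 1.35 (1.33 to 1.38), with 0, 2 and 5 of 20 genes past 1.5-fold higher and 0 lower. *Hmgb2*, an abundant chromatin protein of dividing cells, stood at 1635 and 455 CPM in KO1134, 1458 and 452 in KO1308 and 3441 and 1906 in WT1101. The gene in the lower direction was *Pttg1*, which encodes securin, the inhibitor of chromatid separation, with ratios of 0.599 (0.513 to 0.699), 0.586 (0.437 to 0.781) and 0.855 (0.739 to 0.988). Its cortex-side ratios were 0.995, 0.691 and 0.885.

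Genes of DNA replication were higher by less than those of mitosis. The 59 genes of licensing, fork and nucleotide supply stood at 5809 CPM in members and 2826 in comparison bins of KO1134, 7382 and 3353 in KO1308, and 8172 and 5816 in WT1101. The ratios were 2.06 (2.01 to 2.11), 2.20 (2.12 to 2.29) and 1.41 (1.38 to 1.43), and 48 of 59, 50 of 56 and 24 of 59 genes were past 1.5-fold, with 0 in the lower direction. In cortex pairs they were 1.13 (1.10 to 1.16), 1.19 (1.14 to 1.23) and 1.30 (1.27 to 1.32), with 1 of 57, 8 of 55 and 10 of 59 genes past 1.5-fold higher and 1, 0 and 0 lower. The intervals of the mitosis and replication lists did not overlap in any section, in whole sections or in cortex pairs. With comparison bins within 270 µm they overlapped in KO1308, at 1.29 (1.24 to 1.34) for mitosis and 1.21 (1.16 to 1.25) for replication.

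*Rrm2*, the ribonucleotide reductase subunit that is made in S phase, stood at 164 CPM in members and 49.7 in comparison bins of KO1134, 457 and 144 in KO1308, and 459 and 284 in WT1101. *Tyms*, thymidylate synthase, had ratios of 3.50, 2.64 and 1.81, and *Clspn*, a fork protein that relays the replication checkpoint, 3.91, 2.93 and 1.65. *Pola1*, the catalytic subunit of DNA polymerase alpha, had 2.93, 2.92 and 1.79 in whole sections and 1.38, 1.66 and 1.71 on the cortex side. *Rfc2*, of the clamp loader, stayed near 1 with 1.16, 1.25 and 1.04, and all 3 intervals included 1. *Rpa1*, which binds single-stranded DNA, was 0.794 (0.696 to 0.907) in KO1134 and 1.88 and 1.202 in the other two. *Neil3*, a glycosylase that unhooks DNA crosslinks at forks, had the largest lowest ratio over the 3 sections of any gene, at 37.4 and 10.7 CPM in KO1134, 61.4 and 17.4 in KO1308, and 79.4 and 36.8 in WT1101. Its cortex-side ratios were 1.13 (0.794 to 1.61), 1.44 (0.946 to 2.20) and 1.79 (1.46 to 2.19), so that in both KO sections the interval included 1.

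The transcription factors of these genes were higher in whole sections, where the list had ratios of 1.95 (1.81 to 2.11), 2.19 (1.96 to 2.45) and 1.32 (1.26 to 1.38). *Foxm1*, which drives G2 and mitosis genes, stood at 16.6 and 4.91 CPM in KO1134, 37.6 and 14.7 in KO1308, and 31.6 and 19.7 in WT1101. *E2f8*, a repressor made late in S phase, had ratios of 2.58 (1.84 to 3.68), 7.41 (4.04 to 14.9) and 1.83 (1.49 to 2.26). *E2f1* had 3.48, 2.44 and 1.28, and the interval of WT1101 included 1. *Lin37*, a subunit of the MuvB complex that is made in resting and dividing cells alike, had 1.25, 1.12 and 0.956, with 1 inside each interval. Within cortex the list stood at 1.12 (1.04 to 1.22), 1.29 (1.17 to 1.43) and 1.20 (1.14 to 1.26), with 0 of 13, 2 of 9 and 3 of 15 genes past 1.5-fold. The cortex-side ratios of *Foxm1* were 1.09 (0.663 to 1.80), 1.29 (0.753 to 2.23) and 1.52 (1.10 to 2.10), and those of *E2f8* were 1.06 (0.762 to 1.48), 1.84 (1.23 to 2.80) and 1.58 (1.27 to 1.96). In KO1134, 1 lay inside the interval of both genes.

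Genes of G1 were divided. *Ccnd2*, a D-type cyclin, was lower in members of each section, at 28.2 CPM against 60.1 in KO1134, 21.1 against 41.2 in KO1308 and 12.6 against 26.6 in WT1101. *Ccnd3*, the D-type cyclin used by thymocytes after beta selection, was higher, at 177 against 143 CPM, 643 against 225 and 542 against 473. *Ccnd1* had ratios of 0.517, 0.772 and 0.721, and its intervals in KO1308 and WT1101 included 1. The E-type cyclins *Ccne1* and *Ccne2* had ratios of 1.44 to 2.47. *Cdk2*, their kinase partner, had 2.54, 3.59 and 1.41 and *Cdk6*, a partner of the D-type cyclins, 3.82, 2.31 and 1.55. In cortex pairs *Ccnd2* stood at 0.683, 0.543 and 1.06 and *Ccnd3* at 1.01, 1.40 and 1.03. *Ccne1* and *Ccne2* had 0.829 to 1.37 there and *Cdk2* 1.41, 2.09 and 1.31. *Cdk6* had 1.10 (1.03 to 1.19), 1.13 (0.908 to 1.42) and 1.38 (1.22 to 1.56), so that the interval of KO1308 included 1.

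Of the 7 inhibitors of these kinases, *Cdkn1b*, *Cdkn2c* and *Cdkn2d* had enough UMIs in all sections. *Cdkn2c*, which blocks CDK4 and CDK6, was higher in members, at 103 CPM against 41.7 in KO1134, 113 against 73.3 in KO1308 and 160 against 88.4 in WT1101. *Cdkn1b*, which encodes p27, the inhibitor of resting thymocytes, was 0.466 (0.373 to 0.579) in KO1134, 1.71 (1.24 to 2.38) in KO1308 and 1.08 (0.952 to 1.22) in WT1101. In cortex pairs *Cdkn1b* stood at 0.838, 0.977 and 1.04. *Cdkn1a*, which encodes p21, the inhibitor that p53 switches on, was sparse, at 4.29, 4.58 and 7.14 CPM over all members. The 11 quiescence genes together had ratios of 0.572 (0.547 to 0.598), 1.05 (0.980 to 1.13) and 0.873 (0.846 to 0.901), with 8, 2 and 1 genes past 1.5-fold lower and 0, 4 and 0 higher. In cortex pairs the list stood at 0.934 (0.877 to 0.994), 1.03 (0.951 to 1.11) and 0.859 (0.829 to 0.890), with 0, 1 and 0 genes lower and 0, 1 and 0 higher. *Klf2*, a factor of resting T cells, was lower in each section, at 0.393, 0.433 and 0.448, and its cortex-side ratios were 0.972, 0.803 and 0.801.

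**Figure D3:**
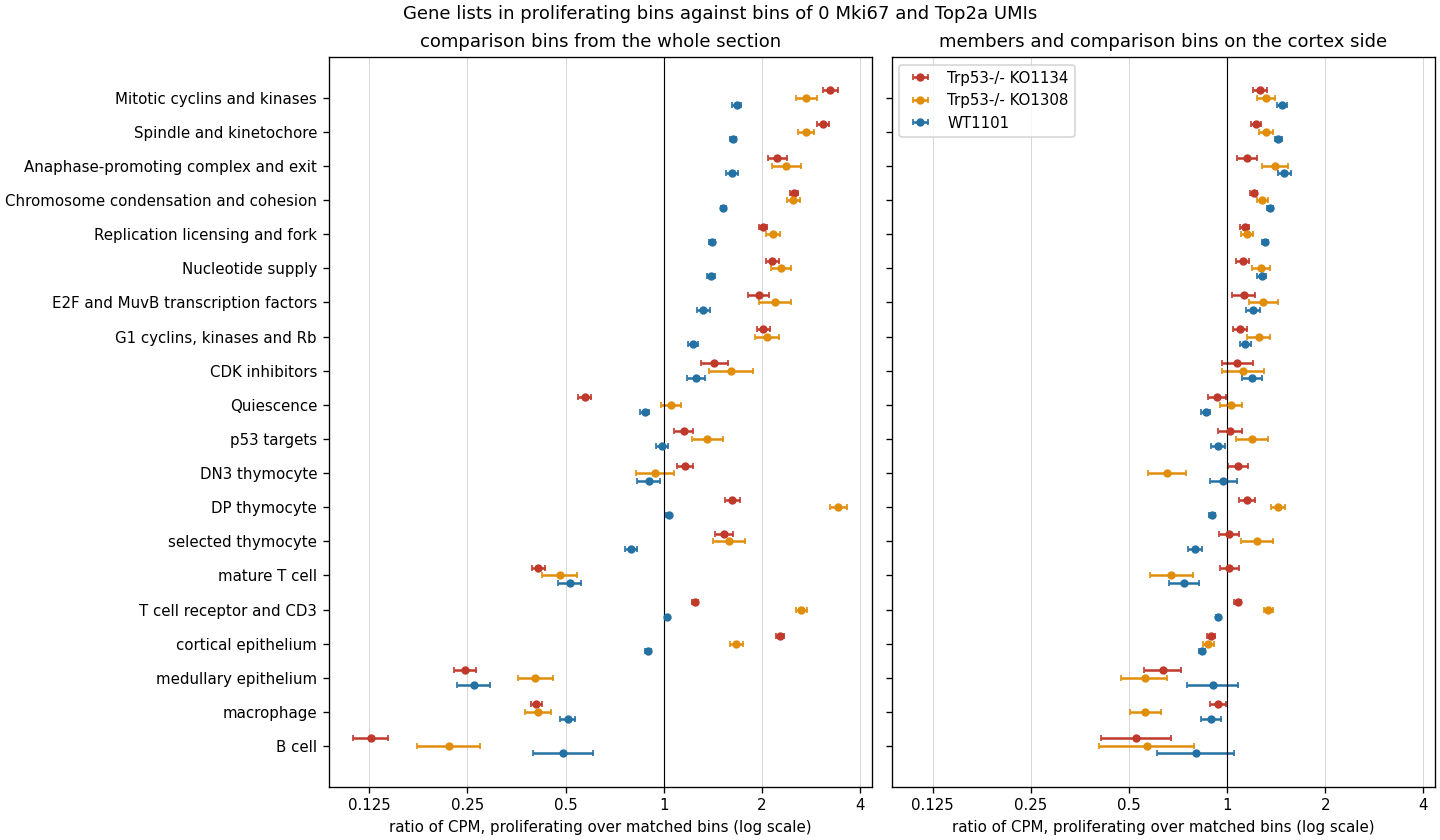
Ratio of summed CPM in members over depth-matched bins of 0 *Mki67* and *Top2a* UMIs (log axis), per gene list and section, with comparison bins from the whole section (left) and from the cortex side alone (right), and exact 95% counting intervals. Mitosis and replication lists lie right of 1 in both panels, whereas cortical epithelium lies at 2.28 and 1.67 in the KO sections on the left and at 0.894 and 0.876 on the right.

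Genes of DP thymocytes had higher summed levels in members of the KO sections when the whole section was compared, with genes in both directions in KO1134. The 11 genes stood at 1249 CPM in members and 769 in comparison bins of KO1134, 4138 and 1207 in KO1308, and 6192 and 5985 in WT1101. The ratios were 1.62 (1.55 to 1.71), 3.43 (3.22 to 3.65) and 1.03 (1.02 to 1.05). Of the genes with enough UMIs, 5 of 9 were past 1.5-fold higher and 4 lower in KO1134, 10 of 11 and 1 in KO1308, and 0 and 0 of 11 in WT1101. On the cortex side the ratios were 1.15 (1.09 to 1.22), 1.44 (1.37 to 1.51) and 0.898 (0.882 to 0.916), so the WT list lay below 1. That area was set in part by *Themis*, *Arpp21* and *Cd8b1* of this same list. Most members held such transcripts in each section, with at least 1 UMI of the list in 95.9%, 97.1% and 99.8% of them and medians of 4, 7 and 15 UMIs per member. For the DN3 list these shares were 88.1%, 48.4% and 48.3%, and for the mature T cell list 88.9%, 42.1% and 36.4%. They were not computed for comparison bins, so they do not set members apart.

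*Rag1*, the recombinase that cuts receptor genes, stood at 61.6 CPM in members and 11.3 in comparison bins of KO1134, 412 and 130 in KO1308, and 631 and 664 in WT1101. Its cortex-side ratios were 1.48, 1.33 and 0.829. *Dntt*, the polymerase that adds bases at the joints, had ratios of 4.36 (3.94 to 4.83), 3.90 (3.39 to 4.51) and 1.11 (1.06 to 1.15) in whole sections and 1.16, 1.45 and 0.951 on the cortex side. The coreceptor gene *Cd4* was 0.423 (0.320 to 0.555) in KO1134, 2.73 (2.19 to 3.42) in KO1308 and 0.914 (0.836 to 0.999) in WT1101. Within cortex *Rag1* and *Dntt* thus lay below 1 in WT1101 and above 1 in both KO sections, with 1 outside all 6 intervals. *Cd4* differed from them in KO1134, at 0.714 (0.481 to 1.05), 1.23 (1.02 to 1.48) and 0.818 (0.743 to 0.902) in cortex pairs, and *Cd1d1*, which presents lipids, stood at 0.826 (0.512 to 1.33), 1.35 (0.756 to 2.44) and 0.819 (0.667 to 1.00).

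The summed DN3 list showed no shared direction. The 7 DN3 genes had ratios of 1.16 (1.10 to 1.23), 0.939 (0.822 to 1.07) and 0.900 (0.829 to 0.976), and on the cortex side 1.08, 0.653 and 0.974. Gene by gene, the median ratios in whole sections were 2.22, 1.21 and 1.06, with 4 of 6, 4 of 6 and 4 of 7 genes above 1. In KO1134, 4 genes were past 1.5-fold higher and 1 lower. On the cortex side the medians were 1.09, 0.693 and 1.02. *Il2ra*, the CD25 gene that defines this stage, stood at 174 CPM in members and 64.1 in comparison bins of KO1134, 55.9 and 39.4 in KO1308, and 33.3 and 29.1 in WT1101, and on the cortex side its ratios were 1.09, 1.04 and 1.19. *Tfrc*, the transferrin receptor of growing blasts, had 2.82, 1.92 and 1.14 in whole sections and 1.08, 1.11 and 1.07 on the cortex side. Genes of blasts after beta selection had 1.77 (1.64 to 1.91), 1.71 (1.49 to 1.97) and 0.980 (0.918 to 1.05), and in cortex pairs 1.05 (0.965 to 1.13), 1.08 (0.946 to 1.23) and 0.932 (0.868 to 1.00). Genes of early progenitors and DN2 cells had 1.25 (1.17 to 1.34), 1.58 (1.40 to 1.79) and 0.996 (0.948 to 1.05), and in cortex pairs 1.03, 1.27 and 0.936. These sums did not describe most genes of that list. Its median ratios were 1.36, 0.718 and 0.666, with 6 of 8, 1 of 3 and 1 of 4 genes above 1. In cortex members, *Bcl11b* alone gave 294 of 589 CPM of the list in KO1134, 558 of 649 in KO1308 and 740 of 791 in WT1101. *Myc*, which drives growth before division, had 2.02, 1.44 and 0.948 and then 1.19, 0.965 and 1.08. Selected thymocyte genes, which follow the DP stage, had 1.53, 1.58 and 0.794 and then 1.01, 1.24 and 0.797.

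Genes of mature T cells were lower in members of each section. The 7 genes stood at 812 CPM in members and 1970 in comparison bins of KO1134, 336 and 702 in KO1308, and 213 and 415 in WT1101. *S1pr1*, the receptor with which T cells leave the thymus, was at 11.03 against 239 CPM in KO1134, 16.5 against 56.8 in KO1308 and 7.37 against 26.6 in WT1101. *Ccr7*, the receptor that guides them into the medulla, had ratios of 0.103, 0.0795 and 0.2496. Within cortex the list stood at 1.02 (0.948 to 1.09), 0.674 (0.579 to 0.784) and 0.737 (0.664 to 0.819), so that in KO1134 the interval included 1.

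Several lists of other cells had summed levels below those of comparison bins. B cell genes had ratios of 0.126, 0.219 and 0.492, medullary epithelial genes 0.246, 0.404 and 0.261, and macrophage genes 0.407, 0.410 and 0.507. The macrophage sum of KO1134 did not describe most of its genes, as 5 of 7 had ratios above 1 with a median of 1.24, and 2 were past 1.5-fold higher and 1 lower. Plasma cell genes did not share the direction, at 1.25 (1.16 to 1.33), 0.956 (0.875 to 1.04) and 0.864 (0.786 to 0.949), and in cortex pairs they stood at 0.696, 0.662 and 0.830. Within cortex the B cell list stood at 0.526, 0.568 and 0.801, the medullary list at 0.634, 0.558 and 0.903 and the macrophage list at 0.938, 0.562 and 0.892. The cortex side was itself set by the genes of the medullary list and by *Cd79a*, *Cd79b* and *Ms4a1* of the B cell list. *Cd79a*, part of the B cell receptor, stood at 34.3 against 286 CPM in KO1134, 33.0 against 137 in KO1308 and 4.28 against 19.2 in WT1101. *Lyz2*, lysozyme of macrophages, had ratios of 0.173, 0.270 and 0.318 in whole sections and 0.848, 0.509 and 0.818 on the cortex side. *Ccl21a*, the chemokine of medullary epithelium, had 0.159, 0.223 and 0.139. Its near-identical copies *4930578G10Rik*, *Gm13304*, *Gm13307* and *Gm21541* were with it among the 10 genes whose highest ratio was smallest, and reads could have been split between them. Members without any UMI of the B cell list numbered 788, 493 and 2765, a count that was not made for comparison bins. Bins of 5 or more fat gene UMIs held 0 members, although 16.6% of 157 such bins in KO1134 and 10.5% of 191 in KO1308 held at least 1 UMI of the rule genes.

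Transcripts of cortical epithelium were found in nearly all members. Its 6 genes had at least 1 UMI in 99.8% of members in KO1134, 98.8% in KO1308 and 98.1% in WT1101, and stood at 4571, 4604 and 4140 CPM over all members. Such shares were not computed for comparison bins, and whether epithelial and dividing cells lay in the same squares was not tested. The ratios were 2.28, 1.67 and 0.892 in whole sections. Within cortex, an area set by these same genes, they were 0.894 (0.870 to 0.920), 0.876 (0.841 to 0.913) and 0.837 (0.818 to 0.857), with *Prss16*, a protease of these cells, at 0.848, 0.868 and 0.812.

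Members lay beside other members. Of the 8 bins around a matched member, 20.6% (19.7 to 21.6) were members in KO1134, 15.8% (14.8 to 16.9) in KO1308 and 23.1% (22.4 to 23.8) in WT1101. Around comparison bins these shares were 3.60%, 2.80% and 10.9%. The ratios were 5.74, 5.66 and 2.12 in whole sections, 1.44, 1.96 and 1.72 on the cortex side and 1.77, 1.64 and 1.58 with comparison bins within 270 µm. At 270 µm from a member the share was 12.1%, 4.78% and 14.2%, so it declined most steeply in KO1308. These shares describe position, as neighbouring bins share depth and tissue.

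The median distance to the outer edge of the tissue was smaller for members than for comparison bins. It was 297 µm for matched members and 423 µm for comparison bins in KO1134, 189 and 267 µm in KO1308, and 380 and 573 µm in WT1101. Members minus comparison bins, the difference was -126, -78.3 and -193 µm in whole sections, and it kept this sign on the cortex side, at -23.0, -73.6 and -63.1 µm. In bins of 20 µm it was -7.25, -14.2 and -29.5 µm. Tissue of KO1308 and WT1101 reached the border of the capture area, and with this border not counted as edge the difference was -126, -63.0 and -206 µm. Against all tissue bins, whose medians were 334, 189 and 650 µm, members of KO1308 were no nearer to the edge, at 189 µm, and in bins of 20 µm they were further from it, at 120 µm against 89.4 µm. The difference thus depended on the bins compared.

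By distance from the edge of all tissue, not of the thymus alone, the 2 KO sections differed from WT in where members were most frequent. Lymph-node-like tissue made up 16.6% of kept bins in KO1134, 2.89% in KO1308 and 0% in WT1101. Other tissue outside the thymus area made up 11.4%, 12.7% and 8.84%. Members were at most 1.39% of the bins of these areas, and the part of these areas in the zones was not tested. In WT1101 the share was 25.5% of bins within 100 µm, 22.7% at 100 to 200 µm, 14.8% at 200 to 400 µm and 6.53% further in. In KO1134 it was 4.38%, 10.3%, 11.6% and 6.08%, and in KO1308 1.97%, 5.57%, 4.62% and 1.53%. The depth of the bins moved with this share. Median UMIs per bin in these zones were 2210, 2096, 1565 and 1157 in WT1101, 1381, 2470, 2960 and 2832 in KO1134, and 574, 1023, 1001 and 1109 in KO1308, and their part in the shares was not tested. On the CPM scale, the 2 genes stood at 1047, 1036, 1022 and 804 CPM in WT1101, at 464, 537, 486 and 367 in KO1134, and at 646, 770, 712 and 410 in KO1308. On this scale WT was nearly level over the outer 400 µm, and each section was lowest beyond 400 µm.

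**Figure D4:**
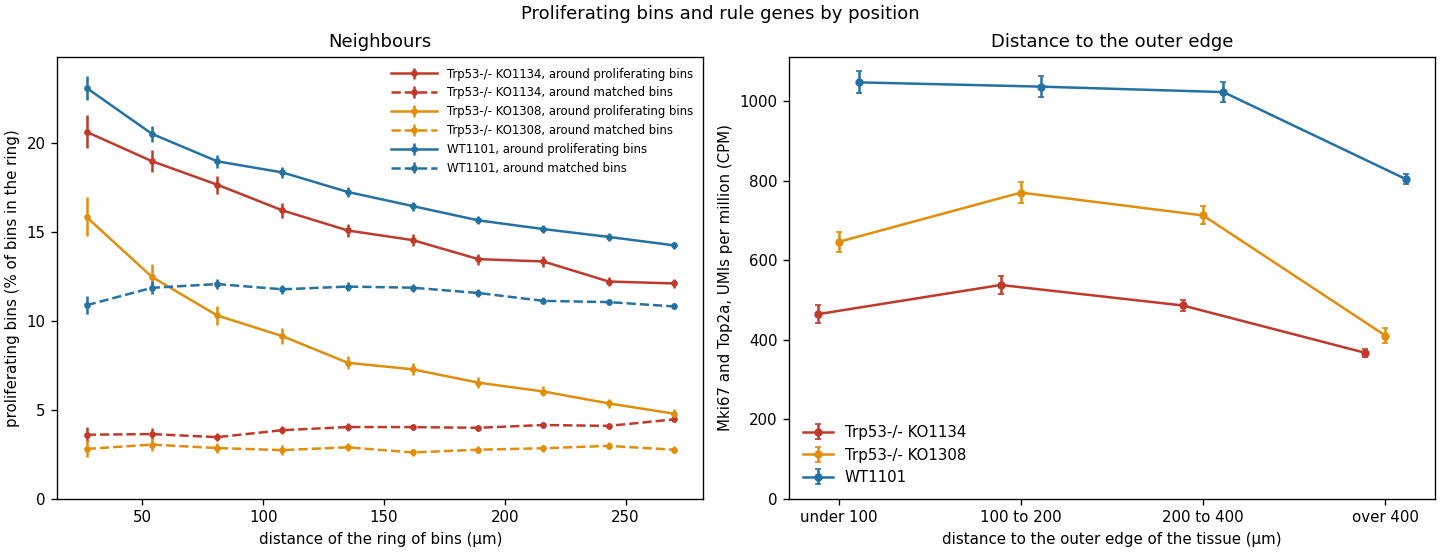
Left, share of bins that are members (percent) in square rings 27 to 270 µm around matched members (solid) and around comparison bins (dashed), and right, *Mki67* and *Top2a* CPM in 4 zones of distance from the outer edge, per section. Around members the share falls from 20.6% to 12.1% in KO1134, 15.8% to 4.78% in KO1308 and 23.1% to 14.2% in WT1101 between the first and last ring.

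Members of the KO sections were then set beside members of WT1101. As every member held at least 4 UMIs of the rule genes, the depth of a section fixes the CPM of these 2 genes in its members, and the values below are for other genes. The targeted gene *Trp53* (ENSMUSG00000059552, chromosome 11 from 69580359 to 69591873, plus strand) stood at 13.8 CPM in members of KO1134, 25.6 in KO1308 and 83.3 in WT1101, from 45, 28 and 641 UMIs. The ratios to WT were 0.166 (0.1196 to 0.224) and 0.308 (0.203 to 0.449), so UMIs of the gene were lower but not absent in the KO sections. Which part of the gene the allele lacks is not given in the sources used here.

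*Cdkn2a*, which encodes p16 and p19ARF, brakes on the cell cycle of which the latter acts through p53, was seen in KO members and not in WT members. It had 310 UMIs, or 95.02 CPM (84.7 to 106), in members of KO1134, and 43 UMIs, or 39.4 CPM (28.5 to 53.1), in KO1308. In WT members it had 0 of 7698867 UMIs, and 3 UMIs, taken as the floor over all WT members together, would be 0.390 CPM, so the KO levels were at least 244-fold and at least 101.1-fold higher than this floor. The exact 95% interval of the WT level reached to 0.479 CPM, and the intervals of the ratios began at 197 and 78.7. At least 1 UMI was seen in 26.8% (24.0 to 29.7) of KO1134 members, 6.61% (4.69 to 8.99) of KO1308 members and 0 of 2975 WT members, which allows up to 0.101% at 3 members and up to 0.124% by the exact interval. It was not restricted to members, standing at 77.2, 55.8 and 0.684 CPM in the other bins of the thymus area. Within the KO sections its ratio of members to comparison bins was 5.08 and 1.30, and on the cortex side 1.198 and 0.723.

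KO members had lower levels of mitosis and replication genes than WT members. Mitosis genes stood at 5665 CPM in KO1134, 7689 in KO1308 and 9148 in WT1101, with ratios to WT of 0.619 (0.609 to 0.629) and 0.841 (0.822 to 0.860), and 5 and 22 of 78 genes were above WT. Replication genes stood at 5809, 7382 and 8434 CPM, with ratios of 0.689 and 0.875. *Hmgb2* had ratios of 0.470 and 0.420, *Ube2c* 0.446 and 0.704, and *Rrm2* 0.342 and 0.951. The G1 list was an exception, at 1.13 (1.10 to 1.17) and 0.980 (0.931 to 1.03), and within it *Cdk6* stood at 731 CPM in KO1134, 191 in KO1308 and 185 in WT1101. The 14 p53 target genes together had ratios of 0.598 (0.567 to 0.630) and 0.771 (0.715 to 0.831), although 8 of them were above WT in KO1134 and 3 in KO1308. Among those named were *Ccng1*, a cyclin G induced by p53, at 0.468 and 0.439, and *Mdm2*, which encodes the ligase that degrades p53, at 0.698 and 0.953, where the interval of KO1308 included 1. *Perp*, a membrane protein induced by p53, stood at 1.45 (1.20 to 1.75) and 1.12 (0.808 to 1.53), *Aen*, a nuclease, at 1.36 (1.11 to 1.67) and 0.895 (0.607 to 1.28), and *Phlda3* at 1.40 (0.991 to 1.96) and 2.06 (1.30 to 3.16). In comparison bins the ratios to WT were 0.350 and 0.527 for mitosis genes and 0.486 and 0.577 for replication genes. They were 0.668 and 0.565 for the G1 list and 0.491 and 0.536 for p53 target genes. These bins were matched on depth and not on tissue, so their ratios do not show whether lower levels were particular to members. In comparison bins of the cortex side, mitosis genes stood at 4685 CPM in KO1134, 5942 in KO1308 and 6215 in WT1101. Replication genes stood at 5207, 6317 and 6369 CPM there, and p53 target genes at 529, 615 and 1026. Each of these lists was below WT in both KO sections. The G1 list stood at 1673, 1239 and 1416 CPM, above WT in KO1134.

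The stage genes of KO members differed from those of WT members, most in KO1134. DP genes stood at 1249 CPM in KO1134, 4138 in KO1308 and 6080 in WT1101, with ratios of 0.205 (0.199 to 0.212) and 0.681 (0.660 to 0.702). DN3 genes stood at 783, 398 and 278 CPM, with ratios of 2.81 (2.66 to 2.98) and 1.43 (1.29 to 1.59). *Il7r*, the interleukin-7 receptor of DN and mature T cells, stood at 322 CPM in KO1134, 72.4 in KO1308 and 46.4 in WT1101. This gene was in both the DN3 and the mature T cell list, so the ratios of these lists are not independent. *Il2ra* had ratios of 4.49 and 1.44 and *Hes1*, a target of Notch signalling, 5.42 and 2.16, whereas *Notch1* had 0.837 and 0.986. *Rag1* had ratios of 0.100 and 0.671. *Cd4* was far lower in KO1134 at 0.111 and higher in KO1308 at 1.30, and *Ccnd3* was likewise divided at 0.345 and 1.26. *Myc* stood at 84.9, 123 and 40.4 CPM and *Tfrc* at 294, 255 and 133 CPM, both above WT in each KO section. In comparison bins, which were matched on depth and not on tissue, DP genes had ratios to WT of 0.128 and 0.202. DN3 genes had 2.20 and 1.38 there. In comparison bins of the cortex side, DP genes stood at 1120 CPM in KO1134, 2968 in KO1308 and 6944 in WT1101, and DN3 genes at 737, 603 and 277. The directions of these 2 lists were thus not particular to members.

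Several lists of other cells were higher in KO members, and others were lower or divided. Mature T cell genes had ratios to WT of 4.13 and 1.71, medullary epithelial genes 3.43 and 4.71, B cell genes 2.80 and 2.84, plasma cell genes 2.65 and 4.20, and macrophage genes 2.43 and 1.29. In the other direction, erythroid genes had 0.652 (0.506 to 0.833) and 0.139 (0.0507 to 0.306) and germinal centre B cell genes 0.496 (0.445 to 0.552) and 0.838 (0.728 to 0.961), whereas endothelial genes had 0.963 (0.845 to 1.09) and 1.47 (1.24 to 1.73). Summed levels were low for most of these, with 245, 336 and 71.3 CPM for the medullary list and 90.1, 91.6 and 32.2 CPM for the B cell list. The germinal centre list stood at 251 CPM in WT members, far above the B cell list. In WT cortex members *Mef2b*, *Bcl6* and *Fas* stood at 78.8, 82.0 and 77.0 of its 259 CPM. Its lower KO level thus cannot be read as fewer germinal centre B cells. A square of 27 µm can hold several cells, and fewer cells of a type and less RNA per cell cannot be told apart. The part of these cells in the lower mitosis and DP levels was not tested.

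The 5 genes with the largest ratios shared by both KO sections were *Gm36283*, *Slpi*, *Ccl8*, *Ighg2c* and *Pawr*. *Gm36283* stood at 249 CPM in KO1134, 259 in KO1308 and 6.75 in WT1101. *Slpi*, a secreted inhibitor of proteases, had ratios of 19.6 and 25.3, *Ccl8*, a chemokine, 17.7 and 18.7, *Ighg2c*, an immunoglobulin constant region, 15.9 and 16.2, and *Pawr*, a regulator of apoptosis, 9.23 and 10.4. In comparison bins these ratios were 14.8 and 20.2 for *Gm36283* and 4.97 and 8.58 for *Pawr*. The genes with the smallest ratios were *Gm13394*, *Scfd1*, *Naa16*, *Fam178b* and *Tbc1d12*, at 0.133 to 0.294. *Scfd1*, of vesicle traffic, stood at 65.9, 78.8 and 496 CPM in members, and its ratios in comparison bins were 0.0954 and 0.114.

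Membership by raw UMIs ties members to depth, so the ratios were repeated in 1 band of depth. Among members of 2000 to 3000 UMIs, 228 in KO1134, 191 in KO1308 and 1301 in WT1101, the rule genes had ratios to WT of 0.900 and 1.03. In the same bins mitosis genes had 0.613 and 0.842, replication genes 0.665 and 0.878, DP genes 0.197 and 0.635, DN3 genes 2.66 and 1.47, and mature T cell genes 4.10 and 1.72. The B cell ratio of KO1134 was 1.51 (0.986 to 2.25) there, so that its interval included 1.

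**Figure D5:**
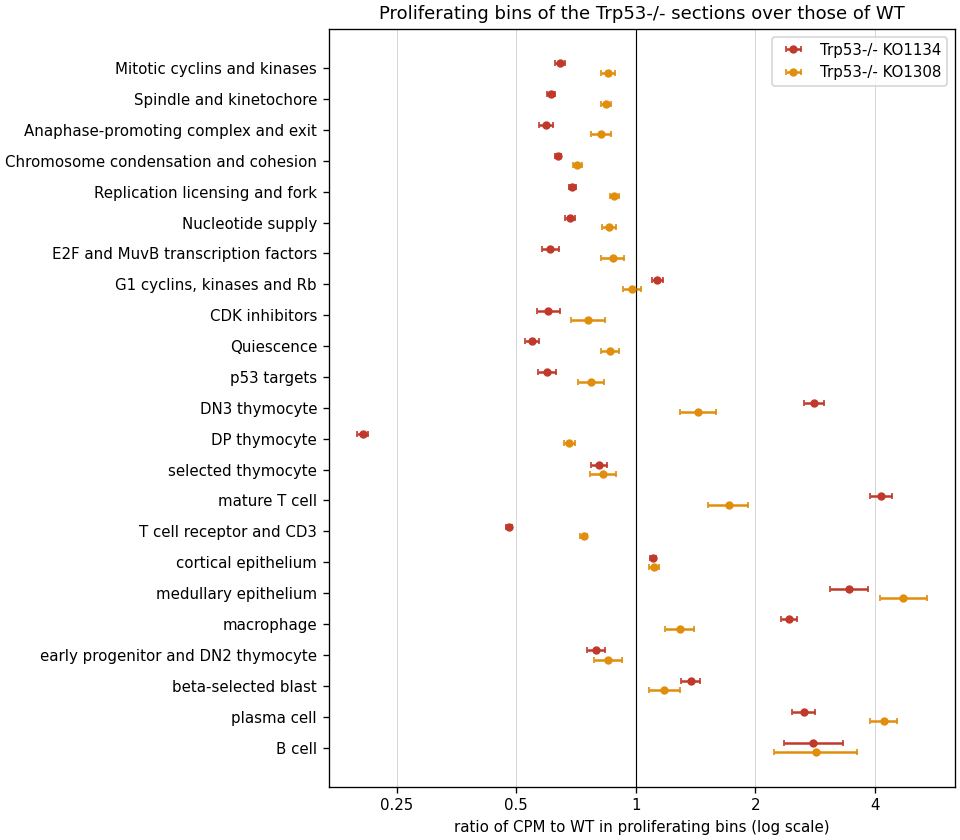
Ratio of CPM in members of each KO section to members of WT1101 (log axis), per gene list, with exact 95% counting intervals. Spindle and kinetochore genes lie at 0.612 and 0.841 and DN3 thymocyte genes at 2.81 and 1.43 in KO1134 and KO1308, each section being 1 mouse.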

How the data were processed

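The deposited values were whole-number UMI counts for every gene in every spot, which the authors made with BSTMatrix and STAR and did not normalise. The build was GRCm38 per the submitters' processing notes. No aligned reads were used, and folded areas that the authors removed were kept here. Spot counts were summed in squares of 27 µm, and a bin was kept from 300 genes upwards unless mitochondrial UMIs exceeded 30%. Sections held 31237062 (KO1134), 21089885 (KO1308) and 41581477 (WT1101) UMIs. Spots shared identifiers between sections because these are slide positions. Gene positions came from GENCODE, where 99.79% of 54838 gene IDs were found.

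Each member was matched, deepest first, to the nearest unused bin of 0 rule UMIs by total UMIs. Ratios are of CPM, with exact conditional 95% intervals. Genes needed 50 UMIs over both kinds of bin. The members and gene lists were chosen with earlier results of these data known. Genes were named by a rule: the rule genes, *Trp53*, all G1 genes and CDK inhibitors, up to 4 largest and 2 smallest ratios per list, the 10 largest and smallest over all genes, and the 5 largest and smallest between genotypes. *Kif15*, *Cip2a* and *Ank3* were named after their values were seen. Alternatives were bin width, thresholds, matching and area, and those on the cortex side, the capture border and a band of UMIs were added after the data were seen. Python 3.11.15, numpy 2.4.6, scipy 1.17.1, pandas 2.3.3 and matplotlib 3.10.9 were used, and the scripts were tested on simulated data.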

Additional observations from a re-analysis of the deposited data

Results flagged for a closer look

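For 2 gene lists the KO sections lay on one side of 1 and the WT section on the other when members were compared with bins of equal depth anywhere in the section. This difference between genotypes was not tested, with 1 WT mouse. Selected thymocyte genes had ratios of 1.53 (1.43 to 1.64) in KO1134, 1.58 (1.41 to 1.78) in KO1308 and 0.794 (0.761 to 0.829) in WT1101. Within cortex they stood at 1.01, 1.24 and 0.797. Cortical epithelium genes had ratios of 2.28 (2.21 to 2.34), 1.67 (1.59 to 1.75) and 0.892 (0.874 to 0.911). Within cortex they stood at 0.894, 0.876 and 0.837, below 1 in all 3 sections. In KO1134 50.7% of the comparison bins were lymph-node-like, and in WT1101 67.8% were on the cortex side.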

How the results depend on the processing

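Of 122 values under alternatives, 25 moved little, 91 moved by more and 6 reversed, all 6 being the DP ratio of WT1101. Little meant within the counting interval for shares and ratios, within 1 bin width for distances, within 1.5 times for gene counts and within the SD of the KO sections for the KO over WT share. Values follow in the order KO1134, KO1308, WT1101, and the cause was not tested. In bins of 20 µm, members were 2.41, 1.41 and 4.05% of bins, and ratios were 3.57, 2.37 and 1.48 for mitosis, 2.30, 1.87 and 1.26 for replication and 1.75, 3.68 and 0.969 for DP, with distances of -7.25, -14.2 and -29.5 µm. With at least 6 UMIs, shares were 1.94, 0.666 and 3.19%, mitosis 3.50, 3.18 and 1.70, and distances -98.6, -148 and -160 µm, and in KO1308 and WT1101 replication was 2.57 and 1.43, DP 4.05 and 0.990 and the adjacent share 13.3 and 2.92. In the thymus area alone, shares were 10.8, 4.08 and 12.04%, mitosis 1.77, 1.66 and 1.57, replication 1.51, 1.42 and 1.36, DP 1.34, 1.88 and 0.971, and distances -181, -122 and -136 µm. With matches within 270 µm, mitosis was 1.51, 1.29 and 1.46, replication 1.34, 1.21 and 1.28, DP 1.40, 1.17 and 0.983, adjacent shares 1.77, 1.64 and 1.58, and distances -35.0 in KO1308 and -22.6 µm in WT1101. Within cortex, mitosis was 1.23, 1.33 and 1.46, replication 1.13, 1.19 and 1.30, DP 1.15, 1.44 and 0.898, adjacent shares 1.44, 1.96 and 1.72, distances -23.0 µm in KO1134 and -63.1 µm in WT1101, genes past 1.5-fold higher 259 and 400 in the KO sections, and lower 399, 397 and 354. With all bins of 0 UMIs weighted by depth, mitosis was 2.86, 2.52 and 1.57, and in KO1308 and WT1101 replication was 2.09 and 1.32 and DP 2.90 and 0.990. Thinned shares were 8.51, 16.3 and 23.9%, and with at least 500 genes shares were 4.81% in KO1308 and 12.9% in WT1101. Without a filter, 4999, 4749 and 1805 genes were past 1.5-fold higher and 4117, 3952 and 3622 lower, and centred on the median ratio 1181 were higher in KO1308. The KO share of members over the WT share was 0.505, and 0.295 without KO1134 to 0.716 without KO1308. In members of 2000 to 3000 UMIs, 44 of 68 ratios of KO to WT stayed within the interval, 23 moved and 1 reversed, endothelium in KO1134 at 1.01. No paired analysis was possible because each section is 1 mouse and no test compares genotypes.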

Other observations

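Members within 200 µm of the outer edge and members beyond 400 µm were set side by side. Mature T cell genes stood at 784 CPM in outer and 844 in inner members of KO1134, 292 and 622 in KO1308, and 156 and 259 in WT1101, with ratios of outer to inner of 0.929 (0.841 to 1.03), 0.470 (0.349 to 0.639) and 0.601 (0.536 to 0.674), so that the interval of KO1134 included 1. For mitosis genes these ratios were 1.10 (1.06 to 1.14), 1.57 (1.44 to 1.72) and 1.06 (1.04 to 1.08). The groups held 275 and 309 members in KO1134, 302 and 47 in KO1308, and 1192 and 1179 in WT1101, where outer members had a median of 2894 UMIs and inner ones 2134.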
